A study of Sus scrofa with 28 samples.

Results

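The genes that drive the cell cycle and copy DNA were followed in pig loin muscle as 41 probe sets of 38 genes, out of 5226 probe sets with a deposited level. Members were chosen by gene symbol alone and not by their levels. The symbols begin with the letters of the A, B, D and E cyclins, the CDK and CDC families, MCM, ORC, RFC, PCNA, the DNA polymerases and primases, ribonucleotide reductase, TYMS, the E2F factors, CENP, TOP2, HMGB2, the aurora, BUB and polo-like kinases, the kinesins, NUSAP and the histones. The CDKN inhibitors were left out. The platform annotation named 32 of the 41 probe sets, the regulatory factor list of the study named 7, and its list of genes chosen on these same arrays named 2. A further 2566 probe sets have no gene name here, so that other genes of the cell cycle may be among them.

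The study compared loin muscle (Longissimus dorsi) of 2 genetic types at weaning, 14 purebred Iberian piglets (IB, Iberian sows mated with Iberian boars) and 14 crossbred piglets (DU×IB, Iberian sows inseminated with Duroc semen). All 28 were males of 28 days of age, fed by their dams until slaughter, and the RNA of each piglet went to an Affymetrix porcine array of its own. The 14 DU×IB piglets came from far fewer litters than piglets, and from fewer than the IB piglets did, so that most of them had a littermate among the 14. Since the labels do not give the litter, littermates were treated as independent, n = 14 overstates the replication, and the p-values are too small to the extent that littermates are alike. Levels are on the log2 scale, on which a difference of 1 is a 2-fold difference, and they can be compared between piglets for a probe set but not between probe sets.

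Cells that divide pass from G1 into S phase, where the genome is copied, and from G2 into mitosis, where it is shared out. D cyclins with CDK4 and CDK6 release the E2F factors, which switch on the genes of DNA synthesis, and the B cyclins drive entry into mitosis. Muscle fibres have left the cell cycle for good, while satellite cells, fibroblasts, endothelial cells and leukocytes of the tissue can divide, so that the transcripts of S phase and mitosis in postnatal muscle come mainly from cells other than the fibres. In RNA from whole muscle, fewer cells of a type and less RNA per cell cannot be told apart.

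By function, 6 probe sets of 5 genes were of cyclins and cell cycle kinases, 1 was of the origin recognition complex, 3 were of the replication fork, 2 of the supply of deoxynucleotides, 4 of E2F factors, 8 probe sets of 7 genes of chromosome structure and the centromere, 4 of genes named as mitotic kinases, CDCA or spindle proteins and 1 of a histone. Another 2 were of kinesins of cargo transport, 2 of CDK kinases with other roles, and 8 probe sets of 7 genes shared only the letters of the rule. The MCM helicase, the aurora and BUB kinases, primase and thymidylate synthase were not analysed here.

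The 28 arrays fell into 2 hybridization series of 16 arrays (8 of each genetic type) and 12 arrays (6 of each), recovered from 10 bacterial spike-in probe sets whose mean ran from 8.93 to 9.68 in the first and from 6.19 to 7.01 in the second. Array medians ran from 6.01 to 6.71 and from 6.87 to 7.05, and the series differed in 80.1% of all probe sets and in 30 of the 41 members. Genetic types were therefore compared within the series. The labelled tissue could be checked on only 1 of 17 listed genes of muscle fibres, PYGM, the glycogen phosphorylase of muscle, whose 2 probe sets had means of 9.00 and 8.42 in IB and of 8.88 and 8.23 in DU×IB.

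No member passed the test between genetic types (0 of 41, limma with the series as a term, adjusted p under 0.10), where 2.77% of all probe sets did, 2.07% with the higher mean in DU×IB and 0.708% with the higher mean in IB. At an unadjusted p under 0.05 there were 12 members (29.3%), against 13.8% of all probe sets. Of these 12, 11 had the higher mean in DU×IB (26.8% of the members, against 8.42% of all probe sets with such a p and direction), namely CCND2, CCNB1, a CDK2 probe set, RRM2, E2F8, TOP2A, CENPF, CENPH, CDCA3, CDCA7 and a CDC37L1 probe set. The other, CCNDBP1, had the higher mean in IB, where 5.4% of all probe sets had such a p and that direction. Without the series as a term, limma again called 0 of 41, where 0.995% of all probe sets passed, and 10 members were under an unadjusted p of 0.05, against 8.5% of all.

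The members lay mostly on the DU×IB side. The mean was higher in DU×IB for 33 of the 41 (80.5%), against 52.5% of all 5226 probe sets, and the median log2 difference, DU×IB minus IB, was 0.25 over the members and 0.016 over all probe sets. Differences ran from -0.65 (CCNDBP1) to 1.04 (TOP2A). For 31 of the 41 the 95% interval of the difference left out a 2-fold difference in either direction. Over all probe sets this held for 4698 of 5226, a larger share. The ranges of the IB and DU×IB piglets overlapped in all 41. Overlap was not counted over all probe sets, so it is not read as a trait of the members. Since some members vary together, the counts are not of independent genes.

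**Figure D1:**
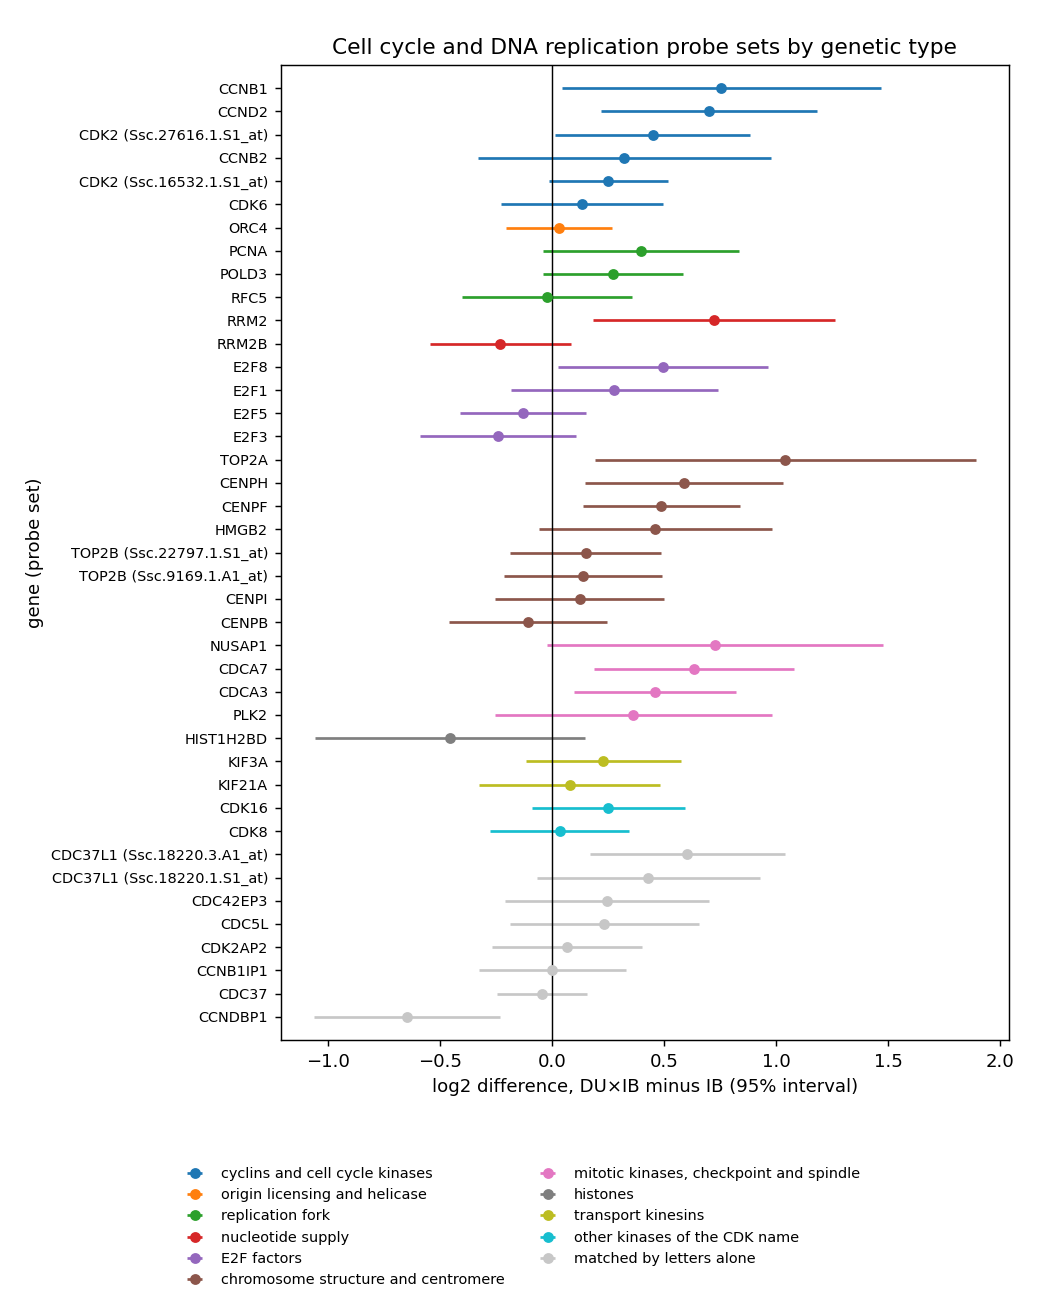
Log2 difference between genetic types (DU×IB minus IB, horizontal axis) for each of the 41 probe sets, with 95% intervals from limma with the hybridization series as a term and colours for functional groups. Of the points, 33 lie to the right of 0, the widest intervals belong to TOP2A, NUSAP1 and CCNB1, and CCNDBP1 lies farthest to the left.

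Among the regulators of G1, CCND2 encodes cyclin D2, a partner of CDK4 and CDK6 that carries growth signals to the cell cycle. Its level lay between 6.26 and 9.11 in IB (median 7.90) and between 7.38 and 9.43 in DU×IB (median 8.52), and 13 of 14 DU×IB piglets lay above the IB median. The means were 7.83 ± 0.89 (SD, n = 14) and 8.53 ± 0.47, a log2 difference of 0.70 (SE 0.24, limma adjusted p = 0.143). The highest piglets of both types were close, and the spread of IB reached lower.

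CDK6, the kinase partner of D cyclins, had a log2 difference of 0.13 (95% interval -0.23 to 0.49). CDK2, the kinase of the G1 to S step and of S phase, has 2 probe sets, with differences of 0.45 (SE 0.21) and 0.25 (SE 0.13) and limma adjusted p of 0.337 and 0.393. In both, the highest DU×IB piglet was near the highest IB piglet (6.05 against 6.14, and 6.16 against 6.01).

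The B cyclins carry cells into mitosis with CDK1. With genetic type and series taken out, they were more spread (SD 0.99 for CCNB1, 0.91 for CCNB2) than CCND2 (0.66), CDK6 and CDK2. Among IB piglets alone this did not hold for CCNB2 (SD 0.57, against 0.89 for CCND2). CCNB1 spanned 3.14 to 6.05 in IB, where the median was 5.32, and 3.95 to 7.41 in DU×IB, where it was 5.38, so that the medians were close while 5 DU×IB piglets lay above every IB piglet. Its log2 difference was 0.76 (SE 0.35, limma adjusted p = 0.326). CCNB2 had a difference of 0.32 (SE 0.32, adjusted p = 0.727), of -0.10 in the series of 16 and 0.89 in the series of 12, and again 5 DU×IB piglets lay above every IB piglet.

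The E2F factors did not share a direction. E2F8, an atypical member that represses E2F targets and is itself made in S phase, spanned 2.53 to 3.73 in IB, where the median was 2.72, and 2.64 to 5.24 in DU×IB, where it was 2.84, with a log2 difference of 0.50 (SE 0.23, limma adjusted p = 0.326). E2F1, an activator of S phase genes, had a difference of 0.28 (SE 0.23). E2F3, another activator, had -0.24 (SE 0.17) and E2F5, which acts with the retinoblastoma-like proteins as a repressor, had -0.13 (SE 0.14), and for each of these 3 the adjusted p was 0.594 or higher. Levels of E2F1 and E2F8 were in the low range of the array, with means under 4 over all piglets.

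At the replication fork, PCNA is the sliding clamp of the DNA polymerases. It lay between 5.81 and 9.55 in IB (median 7.99) and between 7.02 and 9.85 in DU×IB (median 8.39), with a log2 difference of 0.40 (SE 0.21, limma adjusted p = 0.429). POLD3, a subunit of DNA polymerase delta, had a difference of 0.27 (SE 0.15, adjusted p = 0.452) and RFC5, of the clamp loader, -0.02 (SE 0.19, adjusted p = 0.974). ORC4, of the complex that marks replication origins, had 0.03 (95% interval -0.20 to 0.27). PCNA was 1.36 higher on the log2 scale in the series of 12 than in the series of 16, a larger gap than that between genetic types.

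Ribonucleotide reductase makes deoxynucleotides for DNA. RRM2 is its small subunit in S phase, and its level was in the low range of the array, with a mean under 4 over all piglets. Above the IB median lay 13 of 14 DU×IB piglets. RRM2 spanned 2.31 to 3.50 in IB, where the median was 2.60, and 2.55 to 5.51 in DU×IB, where it was 2.94, with 4 DU×IB piglets above every IB piglet. The means were 2.68 ± 0.35 (SD, n = 14) and 3.40 ± 0.97, a log2 difference of 0.72 (SE 0.26, limma adjusted p = 0.182). RRM2B, the p53-dependent subunit that serves cells outside S phase, had a difference of -0.23 (SE 0.15, adjusted p = 0.560), and 3 DU×IB piglets lay below every IB piglet.

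TOP2A, the topoisomerase that untangles chromosomes in dividing cells, had the largest difference of the members. It lay between 3.35 and 7.88 in IB (median 6.58) and between 5.00 and 9.00 in DU×IB (median 7.05), and 5 DU×IB piglets lay above every IB piglet. The means were 6.18 ± 1.26 (SD, n = 14) and 7.22 ± 1.16, a log2 difference of 1.04 (SE 0.42, 95% interval 0.19 to 1.89, limma adjusted p = 0.236). Its paralogue TOP2B, which is also made in cells that do not divide, had 0.15 (SE 0.17) and 0.14 (SE 0.17) in its 2 probe sets. The spread of TOP2A between piglets, with genetic type and series taken out, was the widest of the 41 (SD 1.20, against a median of 0.53 over the members).

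Of the centromere proteins, CENPF is made in G2 and mitosis, while CENPH and CENPI belong to the inner kinetochore. CENPF spanned 1.95 to 3.63 in IB, where the median was 3.31, and 3.21 to 4.32 in DU×IB, where it was 3.32, with a log2 difference of 0.49 (SE 0.17, limma adjusted p = 0.160). CENPH lay between 3.40 and 5.03 in IB (median 4.08) and between 3.44 and 6.29 in DU×IB (median 4.30), with a difference of 0.59 (SE 0.22, adjusted p = 0.184). In each of the 2 genes 4 DU×IB piglets lay above every IB piglet. The CENPF medians did not differ by more than 0.05, and 7 DU×IB piglets lay above the IB median by less than that, at the low end of the scale, while 12 of 14 DU×IB piglets lay above the IB median of CENPH. CENPI had a difference of 0.12 (SE 0.19) and CENPB, which binds centromeric repeats, -0.11 (SE 0.17). HMGB2, a chromatin protein abundant in dividing cells, had 0.46 (SE 0.25, adjusted p = 0.443).

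CDCA3 and NUSAP1 act in mitosis, while CDCA7 and PLK2 were grouped with them by name alone. All 4 had the higher mean in DU×IB, as did 52.5% of all probe sets, and none passed the test, where 2.77% of all probe sets did. CDCA7, a factor of chromatin remodelling induced by MYC and E2F, spanned 4.43 to 6.94 in IB, where the median was 5.49, and 5.45 to 7.02 in DU×IB, where it was 6.02, with 13 of 14 DU×IB piglets above the IB median and a log2 difference of 0.63 (SE 0.22, limma adjusted p = 0.153). CDCA3, which acts in the removal of the WEE1 kinase at entry into mitosis, had a difference of 0.46 (SE 0.18, adjusted p = 0.213), and 6 DU×IB piglets lay above every IB piglet. NUSAP1, a spindle protein, had 0.73 (SE 0.37, adjusted p = 0.382).

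PLK2, a polo-like kinase of centriole duplication rather than of mitosis itself, had the widest gap between series of the 41. Its log2 difference was -0.31 (SE 0.37) in the series of 16 and 1.27 (SE 0.37) in the series of 12, and 0.36 (SE 0.30, limma adjusted p = 0.672) over both. The interaction of genetic type with series had an unadjusted p of 0.00738 for PLK2, the only member under 0.05, where 6.37% of all probe sets were. No probe set passed that interaction after adjustment (limma, 0 of 5226, 333 at an unadjusted p under 0.05).

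**Figure D2:**
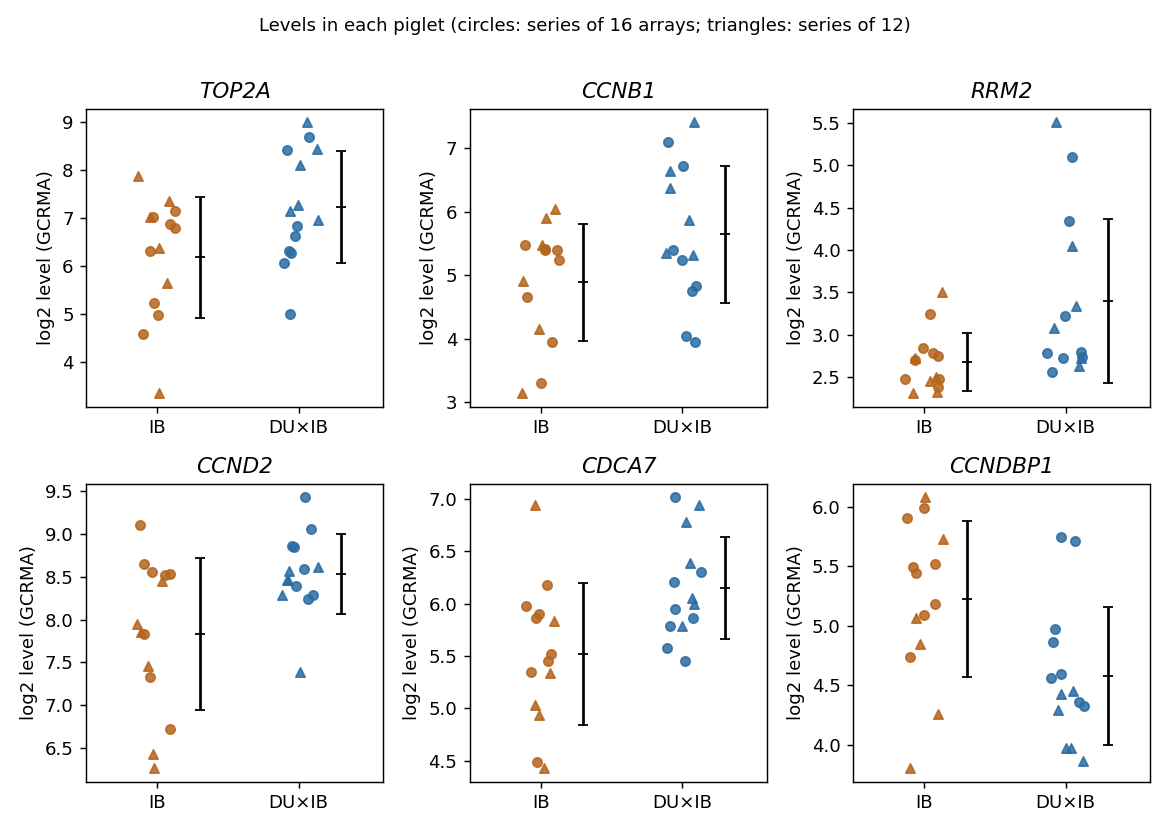
Log2 levels of 6 members in each piglet, IB in brown and DU×IB in blue, with circles for the series of 16 arrays, triangles for the series of 12, and bars for the mean ± SD of 14 piglets. In TOP2A, CCNB1 and RRM2 a few DU×IB piglets stand above all IB piglets, in CCND2 and CDCA7 13 of 14 DU×IB piglets lie above the IB median, and in CCNDBP1 12 of 14 lie below it.

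HIST1H2BD, a core histone of the H2B family, lay between 8.82 and 11.5 in IB (median 10.3) and between 8.79 and 11.0 in DU×IB (median 9.91). Its log2 difference was -0.45 (SE 0.30, limma adjusted p = 0.547), and 3 DU×IB piglets lay below every IB piglet. Kinesins that carry cargo along microtubules, KIF3A and KIF21A, had differences of 0.23 (SE 0.17) and 0.08 (SE 0.20). CDK16 and CDK8, kinases that work outside the cell cycle engine (CDK8 in the Mediator complex of transcription), had 0.25 (SE 0.17) and 0.04 (SE 0.15).

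CCNDBP1 was the member of lowest p and one of 8 with the higher mean in IB. It encodes a helix-loop-helix protein that binds D cyclins and is held to restrain growth. Its level lay between 3.80 and 6.08 in IB (median 5.32) and between 3.86 and 5.75 in DU×IB (median 4.44), and the IB median was above 12 of 14 DU×IB piglets. The means were 5.23 ± 0.66 (SD, n = 14) and 4.58 ± 0.58, a log2 difference of -0.65 (SE 0.20, 95% interval -1.06 to -0.23, limma adjusted p = 0.110). It passed the threshold under array median centring (adjusted p = 0.0922) and quantile normalization (0.0754), and over all 38 alternatives its adjusted p ran from 0.0465 to 0.997. The study had CCNDBP1 in its list chosen on these same arrays, so that its direction is not independent evidence.

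The other genes that share only letters with the cell cycle were also varied. CDC37L1, a relative of the HSP90 co-chaperone CDC37, has 2 probe sets. In the one from the list chosen on these arrays all 14 DU×IB piglets lay above the IB median, with a log2 difference of 0.60 (SE 0.21, limma adjusted p = 0.160), and in the other 7 of 14 did, with 0.43 (SE 0.24, adjusted p = 0.461). CDC37 had a difference of -0.04 (SE 0.10). CDC5L of the spliceosome, CDC42EP3 of the cytoskeleton, CDK2AP2 and CCNB1IP1 lay between 0.0028 and 0.25. Over the 8 probe sets of this kind the median was 0.15, beside 0.39 over the 6 of cyclins and cell cycle kinases and 0.31 over the 8 of chromosome structure, and these medians were not tested against each other.

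Within the series of 16 alone the median difference of the members was 0.22, with 27 of 41 positive. Over all probe sets it was 0.053, with 3071 of 5226 positive. Within the series of 12 alone the members had a median of 0.36, with 30 of 41 positive. All probe sets there had a median of -0.047, with 2345 of 5226 positive. The sign was shared by both series in 30 of the 41 members and in 2908 of all 5226 probe sets. Limma called 0 members in either series, with 0.172% and 4.38% of all probe sets called. For TOP2A the difference was 0.66 in the series of 16 and 1.55 in the series of 12, for CCNB1 it was 0.40 and 1.23, for NUSAP1 0.42 and 1.14, and for RRM2 0.58 and 0.92. In the series of 16, CCNB2 and PLK2 had the higher mean in IB. The test of the difference between series had an unadjusted p of 0.115 or higher for each of TOP2A, CCNB1, CCNB2, NUSAP1, RRM2, CENPF, CENPH and CDCA3.

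**Figure D3:**
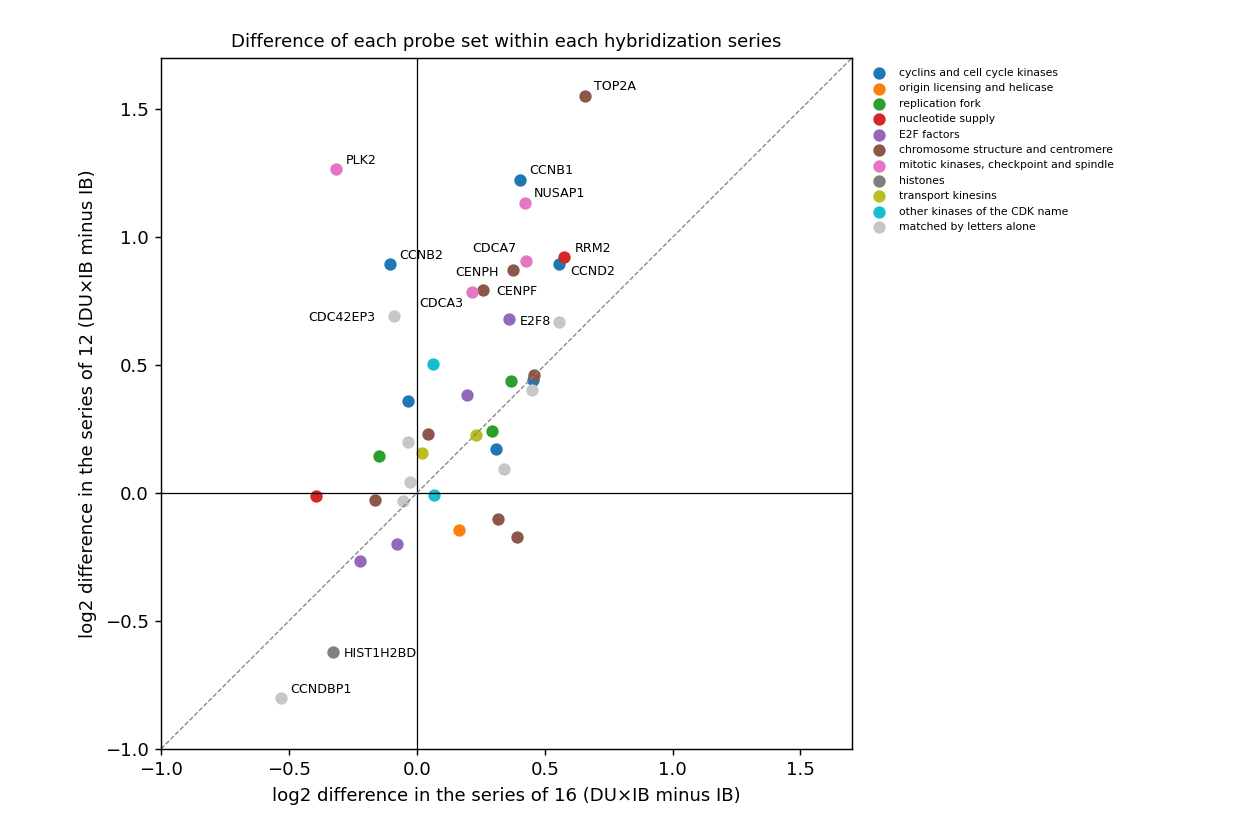
Log2 difference between genetic types (DU×IB minus IB) in the series of 16 arrays (horizontal) against that in the series of 12 (vertical) for each of the 41 probe sets, coloured by functional group, with a dashed line where both are equal. Both values have the same sign in 30 probe sets, PLK2 and CCNB2 lie at the upper left with opposite signs, and TOP2A lies highest, at 0.66 and 1.55.

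Some members varied together from piglet to piglet. With genetic type and series taken out of each level, the median correlation over the 28 piglets was 0.14 for the 820 pairs of members and 0.038 for all pairs of probe sets. Among 10 genes of S phase, G2 and mitosis (CCNB1, CCNB2, CENPF, CENPH, CENPI, TOP2A, NUSAP1, CDCA3, RRM2 and E2F8), picked by their known function with these data known and without other genes of S phase such as PCNA, POLD3, RFC5 and CDK2, it was 0.72, from 0.52 to 0.94 over 45 pairs. It was 0.67 in the series of 16 and 0.83 in the series of 12, and 0.63 among IB and 0.83 among DU×IB piglets. The mean of the 10 was less spread among IB (SD 0.52) than among DU×IB piglets (SD 0.80), so that the genetic types were not read over a like range. The difference in correlation between them was not tested. The closest pairs were TOP2A with NUSAP1 (0.94), CCNB1 with TOP2A (0.93) and CCNB1 with NUSAP1 (0.90). The values of a pair share the array, its normalization and, for some piglets, the litter, and the correlations are given as a description.

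Of the remaining 31 members, all but HMGB2 were less tied to the mean of these 10 than the 10 themselves were. Their correlation with the mean of the 10 had a median of 0.18, and it was over 0.5 for 5 of them, HMGB2 (0.76), PCNA (0.70), CDCA7 (0.69), E2F1 (0.67) and CDC42EP3 (0.53). CCND2 (0.34), PLK2 (0.25), CDK6 (0.098), TOP2B (0.30 and 0.0029), RRM2B (0.16) and ORC4 (-0.15) were lower, as were the S phase genes POLD3 (0.18), RFC5 (-0.096) and CDK2 (0.45 and -0.069). The gap between the 10 and the rest depends on which genes were picked. Each of the 10 is also part of the mean, which raises its own correlation, and HMGB2 (0.759) still lay above CENPF of the 10 (0.756). CCNDBP1 was the lowest of the 41 (-0.33). Over all other probe sets the median was 0.069, and 6.10% were over 0.5.

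**Figure D4:**
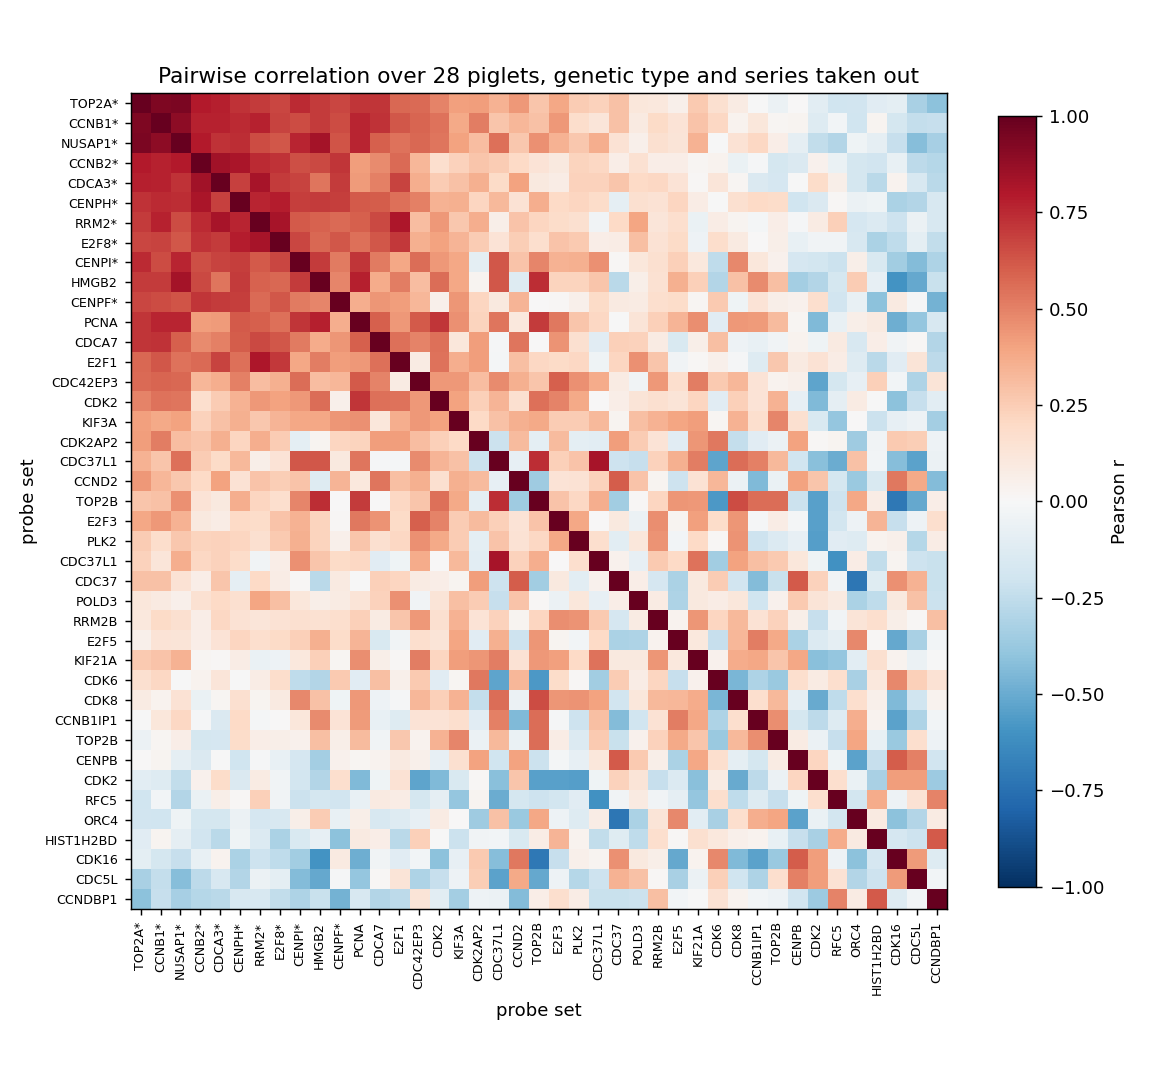
Pearson correlation between each pair of the 41 probe sets over the 28 piglets with genetic type and series taken out, ordered by correlation with the mean of the 10 genes marked by an asterisk (red for positive, blue for negative). The 10 genes lie in a red block that also holds HMGB2, placed before CENPF. PCNA, CDCA7 and E2F1 are beside the block, and CCNDBP1 stands at the other end.

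The mean level of the 10 genes spanned 3.03 to 4.92 in IB, where the median was 4.33, and 3.72 to 6.36 in DU×IB, where it was 4.58. The mean ± SD was 4.25 ± 0.52 and 4.82 ± 0.80 (n = 14). Of the DU×IB piglets, 9 lay within the range of IB and 5 lay above every IB piglet, at 5.47, 5.52, 5.57, 5.90 and 6.36. These 5 piglets (replicates 11, 13, 5, 7 and 12) exceeded the highest IB piglet in 8 to 10 of the 10 genes each, while 1 other DU×IB piglet did so in 1 gene and the rest in none. The 10 genes were picked with these data known and vary together (median correlation 0.72), so that they are not 10 separate readings. RRM2, E2F8, CDCA3 and CENPF had means under 4, where a few high piglets can have carried a probe set past the authors' filter on variation. Of the 5, 2 were in the series of 16 and 3 in the series of 12, and whether they were littermates is not given in the labels. In the series of 16 the medians of the 2 genetic types were 4.33 in IB and 4.27 in DU×IB, and in the series of 12 they were 4.46 and 5.09.

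**Figure D5:**
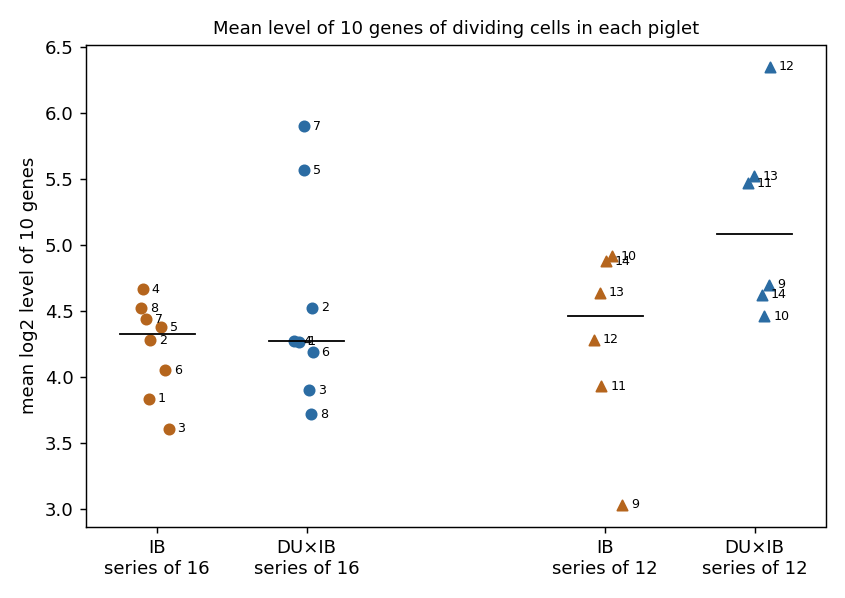
Mean log2 level of 10 genes of S phase, G2 and mitosis in each piglet (vertical axis), by genetic type and hybridization series, with replicate numbers beside the points and the median of each column as a line. DU×IB replicates 5, 7, 11, 12 and 13 lie above all 14 IB piglets, and the other 9 DU×IB piglets lie within the IB range. The 10 genes were picked with these data known and vary together.

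Markers of other cells of the tissue were compared in the same way. For fibroblasts 4 of 10 listed genes were measured here and all 4 had the higher mean in DU×IB, as did 52.5% of all probe sets. COL1A1, the main chain of type I collagen, was higher in DU×IB, by 1.21 on the log2 scale (SE 0.29, limma adjusted p = 0.0270), as was POSTN, a matrix protein of active fibroblasts (1.29, SE 0.36, adjusted p = 0.0634). Neither passed without the series as a term (limma adjusted p 0.187 and 0.141) or in either series alone, where the adjusted p ran from 0.108 to 0.997. Both are in the list that the study chose on these same arrays, so that their direction is not independent evidence. The summed level of the 4 ran from 29.8 to 39.9 in IB and from 37.3 to 42.3 in DU×IB, and their correlation with the mean of the 10 genes had a median of 0.47 (from 0.30 to 0.64). Their part in the differences of the cell cycle genes was not tested.

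Markers of macrophages and monocytes lay the other way. All 10 probe sets of 8 genes (of 15 listed) had the higher mean in IB, as did 2480 of all 5226 probe sets. None passed the test (limma, 0 of 10), where 2.77% of all probe sets did. An unadjusted p under 0.05 was found for 3 (30%, against 13.8% of all). The median difference was -0.42, and the 10 are not independent, since some are of the same gene. Their summed level ran from 53.3 to 75.9 in IB and from 52.2 to 57.7 in DU×IB, and their correlation with the mean of the 10 genes had a median of -0.090. Endothelial markers (8 probe sets of 5 of 9 listed genes) were not called, and 5 had the higher mean in DU×IB and 3 in IB. Their correlation with the mean of the 10 genes ran from -0.57 to 0.45, with a median of 0.22. Of 10 listed genes of satellite cells and myoblasts only MYOD1 was measured here, with a difference of -0.25 (SE 0.30), and the 12 listed genes of lymphocytes were not analysed here.

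Other genes of the cell cycle were read from a list of 117 genes, of which 36 were measured here with 38 probe sets. Of these 38, 25 had the higher mean in DU×IB (65.8%, against 52.5% of all probe sets) and the median difference was 0.16. An unadjusted p under 0.05 was found for 14 (36.8%, against 13.8% of all), and 2 passed the test, 1 in each direction, where 2.77% of all probe sets passed. HUS1, of the ring-shaped clamp that signals DNA damage in S phase, was higher in DU×IB. It lay between 3.67 and 6.14 in IB (median 4.87) and between 4.81 and 6.74 in DU×IB (median 5.89), with a log2 difference of 0.98 (SE 0.18, limma adjusted p = 0.00172). Its second probe set had 1.12 (SE 0.37, limma adjusted p = 0.132), but there the DU×IB piglets were split. In it 7 of 14 DU×IB piglets lay above every IB piglet, at 5.47 to 5.99, and the rest lay at 2.36 to 3.31. The IB piglets lay at 2.71 to 3.78, so that the mean difference of this probe set is not a shift of all DU×IB piglets. It met the authors' filter on variation mainly through the 7 high DU×IB piglets, so that it is not separate evidence for HUS1.

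ZWILCH, of the kinetochore complex that holds the spindle checkpoint, was higher in IB. It spanned 5.86 to 8.42 in IB, where the median was 7.61, and 5.48 to 7.71 in DU×IB, where it was 6.44, where 1 of 14 piglets lay above the IB median, with a difference of -0.90 (SE 0.24, limma adjusted p = 0.0538). Without the series as a term its adjusted p was 0.119, and over all 38 alternatives it ran from 0.0157 to 0.997, the highest in the series of 16 alone. Both HUS1 and ZWILCH are in the list that the study chose on these same arrays, so that neither direction is independent evidence. Their correlation with the mean of the 10 genes was 0.40 for ZWILCH and 0.088 and -0.063 for the 2 probe sets of HUS1. It was highest in this list for MELK (0.92), a kinase of dividing cells, UBE2C (0.90), the ubiquitin-conjugating enzyme of mitotic exit, and STMN1 (0.85), which destabilizes microtubules.

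Of the CDK inhibitors, which hold cells out of the cycle, none passed the test (limma, 0 of 4), where 2.77% of all probe sets did. CDKN1A and CDKN1B were at an unadjusted p under 0.05, as were 13.8% of all probe sets. CDKN1A (p21), the inhibitor induced by p53, lay between 8.49 and 10.9 in IB (median 9.38) and between 7.84 and 9.66 in DU×IB (median 8.76), with a log2 difference of -0.58 (SE 0.22, adjusted p = 0.213). CDKN1B (p27) had -0.34 (SE 0.16, adjusted p = 0.326), of 0.056 in the series of 16 and -0.86 in the series of 12. CDKN2D had -0.20 (SE 0.16). CDKN3, a phosphatase of CDKs that is made in mitosis, had 0.18 (SE 0.27).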

How the data were processed

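Loin muscle RNA of 28 piglets (14 IB, 14 DU×IB) was hybridized to 1 array each. The authors processed the scans with GCOS and made the deposited log2 levels with GCRMA in BRB-ArrayTools. As a method, GCRMA corrects the background by the sequence of the probes and brings the arrays to common quantiles. Over the 5226 deposited probe sets the array medians still differed, from 6.01 to 7.05, and the reason was not tested. The authors kept a probe set where more than 20% of its values were off its median by 1.5-fold or more, which all 5226 met when checked. This removes genes of even level. All value columns were used.

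Probe sets were named from the study's lists, otherwise from the platform annotation. Members and lists were chosen with earlier results of these data known. The series of arrays, which the labels do not name, were recovered from 10 spike-in probe sets at the largest gap of their mean. The test was limma (lmFit and eBayes), two-sided, with genetic type and series as terms, since the methods fitted both effects. P-values were adjusted by Benjamini-Hochberg over the 5226 probe sets, with 0.10 as the threshold. The study's own posterior probabilities and fold changes were not used. The number of arrays limits the precision.

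Named were members past the threshold, the 3 of lowest p in each role, the 5 of highest mean and the 5 of largest residual SD, other cell cycle genes past the threshold, and the CDKN genes. Other genes named were chosen after their values were seen. Alternatives left out the series term, took each series alone, centred arrays on their median, applied quantile normalization again, added the replicate number as a block, used array weights or a trended and robust prior, left out probe sets with a mean under 4 or that match several transcripts, averaged a gene's probe sets, lowered the threshold to 0.05 and left out each piglet in turn. Scripts were tested on simulated data. R 4.3.3, limma 3.58.1, Python 3.11.15, pandas 2.3.3 and matplotlib 3.10.9 were used.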

Additional observations from a re-analysis of the deposited data

How the results depend on the processing

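No member passed the threshold with the series as a term, and the count under the alternatives was 0 to 3. It was 1 under array median centring and under quantile normalization (CCNDBP1, higher in IB) and 2 under array weights (CENPF, higher in DU×IB, and CCNDBP1, higher in IB). Leaving out each piglet in turn gave 0 to 3 members called, 0 to 2 higher in DU×IB and 0 to 1 higher in IB. The count was 3 without IB replicate 14 (CCND2, CDCA7 and CCNDBP1), 2 without IB replicate 2 (CCND2 and CCNDBP1) and 1 without IB replicate 4, 5 or 10 or DU×IB replicate 2 or 4 (CDC37L1 for IB replicate 5, otherwise CCNDBP1). Between 27 and 34 of the members had the higher mean in DU×IB, and their median difference ran from 0.21 to 0.36. Over all probe sets the number called was 145, and 52 without the series term, 9 and 229 in the series of 16 and of 12 alone, 276 under array weights, 80 at a threshold of 0.05 and 103 to 221 with a piglet left out. No scaling moved the median of all probe sets by over 0.1. The causes were not tested, apart from the smaller number of arrays in each series alone.

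Of the other cell cycle genes 2 probe sets were called, and 1 without the series term, in the series of 16 alone, with probe sets of several transcripts left out or at a threshold of 0.05, 0 in the series of 12 alone, 4 under array weights and 2 to 4 with a piglet left out (4 without DU×IB replicate 3 or 6).

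The sign turned for some members and for CDKN1B and CDKN3. In the series of 16 alone CCNB2 had -0.10, PLK2 -0.31, CDC42EP3 -0.087, CDK6 -0.034, CDK2AP2 -0.034, CCNB1IP1 -0.026, CDKN1B 0.056 and CDKN3 -0.20. In the series of 12 alone the 2 probe sets of TOP2B had -0.17 and -0.10, RFC5 0.15, ORC4 -0.14 and CDK8 -0.0069. Among the named probe sets, under array weights KIF21A had -0.0055 and RFC5 0.14. With a piglet left out, RFC5 ran from -0.10 to 0.059, KIF21A from -0.043 to 0.16, ORC4 from -0.023 to 0.075 and CDK8 from -0.032 to 0.099.

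The replicate numbers do not pair the samples, since numbers 1 to 8 lie in one series and 9 to 14 in the other and the deviations of same-numbered piglets correlated from -0.35 to 0.54, over 0.1 in 2 of 14. With the replicate block 145 probe sets and 0 members were called and 33 members had the higher mean in DU×IB.

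Limits are the litters, which the labels do not give, the markers of muscle fibres, satellite cells and lymphocytes, most of which were not analysed here, and the low level of 5 members (RRM2, E2F8, E2F1, CDCA3 and CENPF, means under 4), where background sets the floor and fold differences can be understated. At such levels a probe set can have passed the variation filter mainly through a few high piglets.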
